A study of Mus musculus with 18 samples.

Results

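The genes described are the transcription factors that mark interneurons of the caudal ganglionic eminence (CGE), a ventral forebrain zone in the embryo: Nr2f1, Nr2f2, Prox1, Sp8, Sp9, Npas1 and Npas3. They were chosen by gene symbol. A probe set counted for a gene where the array's annotation listed that gene alone, and where a gene had several, the brightest by its mean was taken as its main probe set. By that rule 6 of the 7 genes were measured, out of 18193 genes on the array, by 16 of its 34945 single-gene probe sets. Sp9, the zinc-finger paralogue of Sp8, was not analysed here.

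The RNA came from GFP-positive cells sorted from brains of GAD65-GFP mice, a line in which a reporter driven from the gene for the GABA-synthesising enzyme GAD65 marks GABAergic cells. Htr3a-KO;GAD65-GFP animals, which lack the ionotropic serotonin receptor subunit Htr3a, were compared with GAD65-GFP control animals, so the reporter is carried by both genotypes. Cells were taken at E14.5, when they migrate tangentially, at E18.5, when they invade the cortical plate, and at P2, when they settle in the cortex. The 6 groups had 3 arrays each, from 3 litters, with at least 4 brains pooled per array, so p-values measure the spread between litter pools.

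Cortical interneurons born in the CGE migrate tangentially into the cortex and include cells that express Vip, reelin or calretinin. Nr2f1 and Nr2f2 (COUP-TFI and COUP-TFII) are orphan nuclear receptors that act in the specification and caudal migration of these cells. Prox1, a homeodomain protein, is kept on after the cells leave the cycle and is required for their migration and maturation. Sp8 is a zinc-finger factor of progenitors and migrating cells in the CGE and the dorsal lateral ganglionic eminence. Npas1 and Npas3 are paralogous bHLH-PAS proteins that act with opposite sign on the number of interneurons produced. Several of these genes are also used elsewhere: Nr2f2 in venous endothelium, Prox1 in lymphatic endothelium, dentate granule neurons and oligodendrocyte precursors, and Npas3 in astrocytes and their progenitors.

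The promoter windows of the 4 genes whose main probe set passed the test in some comparison below are shown here. Each window runs from 250 bases before to 50 bases after the annotated start nearest the gene's 5′ end, as RefSeq gives it on GRCm38.p6, and all 7 genes matched by symbol. Capitals mark a GC box (GGGCGG, or CCGCCC when it lies on the other strand; both strands were searched), the element that Sp-family zinc fingers bind.
Npas1, chr7:16476731-16477030, minus strand: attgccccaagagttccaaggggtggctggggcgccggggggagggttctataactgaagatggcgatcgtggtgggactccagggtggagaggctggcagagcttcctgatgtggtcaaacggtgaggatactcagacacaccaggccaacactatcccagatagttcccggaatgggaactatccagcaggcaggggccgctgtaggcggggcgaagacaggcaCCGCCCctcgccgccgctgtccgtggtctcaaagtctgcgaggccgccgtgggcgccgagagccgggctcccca
Npas3, chr12:53248182-53248481, plus strand: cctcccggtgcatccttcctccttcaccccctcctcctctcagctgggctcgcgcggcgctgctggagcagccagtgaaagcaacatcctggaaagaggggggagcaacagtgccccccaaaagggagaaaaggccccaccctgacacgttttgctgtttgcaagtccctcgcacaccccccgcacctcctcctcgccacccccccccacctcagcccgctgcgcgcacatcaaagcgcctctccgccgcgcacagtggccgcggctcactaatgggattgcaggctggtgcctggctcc
Nr2f1, chr13:78198824-78199123, minus strand: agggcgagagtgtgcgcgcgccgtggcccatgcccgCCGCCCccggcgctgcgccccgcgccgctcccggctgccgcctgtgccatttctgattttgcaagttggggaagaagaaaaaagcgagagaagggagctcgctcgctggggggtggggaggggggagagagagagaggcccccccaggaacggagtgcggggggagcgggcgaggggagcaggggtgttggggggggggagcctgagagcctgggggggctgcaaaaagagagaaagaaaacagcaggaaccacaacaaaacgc
Prox1, chr1:190170778-190171077, minus strand: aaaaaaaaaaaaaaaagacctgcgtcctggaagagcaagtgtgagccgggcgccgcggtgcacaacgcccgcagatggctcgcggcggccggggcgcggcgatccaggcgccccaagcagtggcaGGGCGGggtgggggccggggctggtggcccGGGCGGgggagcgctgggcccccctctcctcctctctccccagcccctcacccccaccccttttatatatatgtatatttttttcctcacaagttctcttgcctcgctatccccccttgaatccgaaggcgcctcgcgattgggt

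All 4 windows were rich in G and C. The GC content was 64.3% for Npas1, 66.3% for Npas3, 68.0% for Nr2f1 and 64.3% for Prox1, against a median of 52.7% over 32851 promoter windows of the same length. They held 20, 18, 23 and 25 CG dinucleotides in that order, against a median of 7. A GC box occurred once in the Npas1 window, once in that of Nr2f1 and in 2 places in that of Prox1, was not found in that of Npas3, and occurred in 35.7% of all windows. Only the Npas3 window of these 4 held ACGTG, the core of sites bound by bHLH-PAS dimers, which 19.6% of all windows hold on either strand. The windows of the other 2 measured genes were poorer in CG. That of Nr2f2 had 49.7% GC and 2 CG dinucleotides, and that of Sp8 had 43.0% GC and 2 CG dinucleotides. The main probe set of each passed in no comparison, but other probe sets of Nr2f2 did pass between ages. A link between window content and the age differences was not tested. In the same build Nr2f2 lies at chr7:70351946-70366746 and Sp8 at chr12:118846288-118852578. A match is a description of these letters and no evidence of a bound site.

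Values were the deposited log2 intensities, normalised by robust multi-array averaging, and every level below is on that scale. Array medians were between 6.35 and 6.46, and arrays of 1 group correlated at 0.974 to 0.995 over the genes tested. The targeted gene followed the labels: Htr3a read 7.41, 7.29 and 7.19 on the E14.5 Htr3a-KO arrays against 8.49, 7.99 and 7.65 on the controls, 6.61, 6.79 and 7.09 at E18.5 against 9.64, 10.79 and 10.58, and 6.81, 7.01 and 6.71 at P2 against 8.61, 8.64 and 9.11. Certain arrays stood apart for the CGE factors as a set. Of the 13 probe sets above the filter on dim probe sets, the first E14.5 control array was highest of its group in 11 and the third lowest in 9, and the second E18.5 control array was highest of its group in 11. The first E18.5 Htr3a-KO array, the second P2 Htr3a-KO array and the first E18.5 control array were each lowest of their group in 9. The GABAergic marker list (Gad1, Gad2, Slc32a1, Dlx1, Dlx2, Dlx5 and Dlx6) averaged 9.61 to 9.86 on the E14.5 Htr3a-KO arrays and 8.97 to 10.78 on the E14.5 control arrays. In sorted pools, fewer cells of a type and less RNA per cell cannot be told apart.

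**Figure D1:**
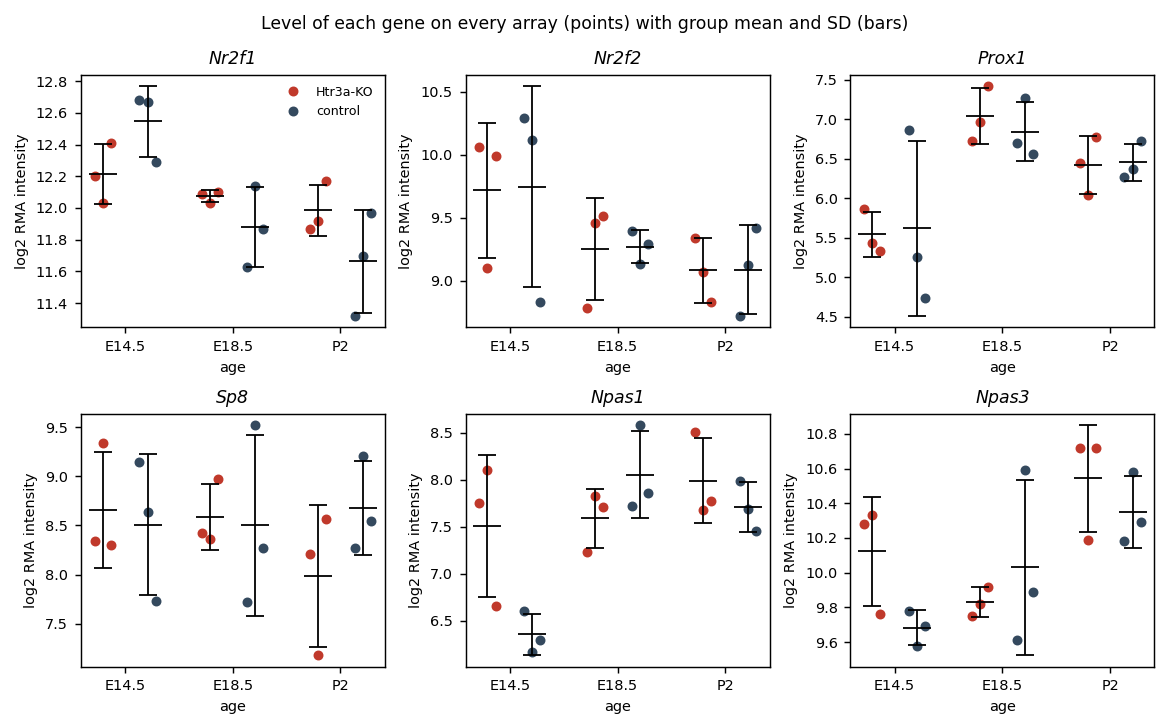
Level of each measured gene (log2 RMA intensity, y axis, a separate scale in each panel) at each age (x axis) in Htr3a-KO (red, left) and control (dark, right). Points are arrays, and bars give the mean and SD of 3 arrays. Npas1 was lowest in the E14.5 controls, at 6.17 to 6.60, and Nr2f1 highest there, at 12.29 to 12.68.

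Among the nuclear receptors, Nr2f1 fell with age in control cells, while no age difference passed in Htr3a-KO cells. In Htr3a-KO cells its levels at E14.5 were 12.20, 12.03 and 12.41, those at E18.5 were 12.09, 12.03 and 12.10, and those at P2 were 11.87, 11.92 and 12.17. In control cells its levels at E14.5 were 12.68, 12.67 and 12.29, those at E18.5 were 11.63, 12.14 and 11.87, and those at P2 were 11.32, 11.70 and 11.97. The Htr3a-KO ages overlapped, whereas all E14.5 control arrays lay above all control arrays of both later ages. Over the 6 groups the mean was highest in E14.5 controls (12.55 ± 0.22, SD, n = 3) and lowest in P2 controls (11.66 ± 0.33), with the 3 Htr3a-KO groups and the E18.5 controls between them, and each group overlapped its neighbours in that order.

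In Htr3a-KO cells the P2 minus E14.5 log2 difference of Nr2f1 was -0.23 (95% interval -0.59 to 0.13; adjusted p = 0.310, limma). In control cells the E18.5 mean was lower than that of E14.5 by 1.59-fold (log2 difference -0.67, SE 0.17; adjusted p = 0.0195), and the P2 mean by 1.85-fold (log2 difference -0.88; adjusted p = 0.000785). Both control differences rest on the same E14.5 arrays. The first was not past 0.05 with any 1 of 4 arrays left out (the E14.5 controls 1 and 2, the E18.5 controls 1 and 3) or with only the arrays compared in the fit (highest adjusted p = 0.0927), while the second passed in 18 of 18 alternatives. The P2 minus E14.5 difference was not shown to differ between genotypes: the difference of differences was 0.66 (95% interval 0.15 to 1.17), with an unadjusted p of 0.0150 and an adjusted p of 0.760.

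Some markers of 3 neuron types were lower at P2 than at E14.5, where 41.5% of all genes passed in Htr3a-KO cells and 39.2% in controls. Of 10 excitatory neuron markers 9 were lower at P2 than at E14.5 in each genotype, and their summed log2 level was 11.00 to 12.31 in Htr3a-KO cells and 12.18 to 12.61 in controls at P2, against 14.18 to 14.48 and 13.96 to 14.54 at E14.5. Of 7 GABAergic markers 4 were lower in each genotype. Of 7 striatal projection neuron markers tested 4 were also lower at P2 than at E14.5 in each genotype, with a summed level of 10.16 to 10.61 in Htr3a-KO cells and 10.22 to 11.01 in controls at P2, against 11.15 to 12.28 and 11.34 to 14.23 at E14.5. Set against the mean of Gad1, Gad2 and Slc32a1 on the same array, Nr2f1 in controls lay at 1.79 ± 0.71 log2 units at E14.5, 1.83 ± 0.08 at E18.5 and 1.84 ± 0.41 at P2 (SD, n = 3), so the control ages overlapped on this within-array measure. In Htr3a-KO cells the same measure was 1.76 ± 0.37, 2.38 ± 0.22 and 2.33 ± 0.40. There all E18.5 arrays lay above all E14.5 arrays, while the P2 arrays overlapped both. A lower reference by itself raises this measure. The GABAergic marker list, which holds the reference genes, averaged lower at both later ages in each genotype. The part of these 3 neuron types in the Nr2f1 difference was not tested.

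The P2 minus E14.5 difference of Nr2f2 was below 0 on all 5 probe sets above the filter in both genotypes, but the brightest probe set did not pass. On that probe set (1416159_at) the level was 10.06, 9.10 and 9.99 in Htr3a-KO cells and 10.29, 10.12 and 8.83 in control cells at E14.5. At P2 it was 9.34, 9.07 and 8.83 in Htr3a-KO cells and 8.72, 9.12 and 9.42 in control cells. At E18.5 it ranged from 8.78 to 9.51 in Htr3a-KO cells and from 9.13 to 9.39 in control cells. At E14.5 the second Htr3a-KO array and the third control array lay far below the others of their groups, and the ages overlapped. The P2 minus E14.5 log2 difference was -0.64 (95% interval -1.36 to 0.09; adjusted p = 0.150) in Htr3a-KO cells and -0.66 (95% interval -1.38 to 0.06; adjusted p = 0.139) in controls.

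Of the other 4 Nr2f2 probe sets above the filter, 1 fell between E14.5 and P2 in Htr3a-KO cells and 3 fell in controls. In Htr3a-KO cells 1416158_at passed (log2 difference -1.03; adjusted p = 0.0408), while 1416160_at (-0.72; adjusted p = 0.109) and 1436475_at (-0.65; adjusted p = 0.137) did not. In control cells 1416160_at read 6.42, 5.96 and 6.63 at P2 against 8.90, 7.91 and 7.12 at E14.5, with no overlap, a 3.12-fold difference (log2 difference -1.64; adjusted p = 0.00151). The control difference was -1.41 for 1416158_at (adjusted p = 0.00839) and -1.18 for 1436475_at (adjusted p = 0.0111). Of the probe sets at or under the filter, 1444229_at passed between P2 and E14.5 in controls (-0.70; adjusted p = 0.0253), and 1431237_at, just above it, between P2 and E18.5 in controls (-0.58; adjusted p = 0.0154). The probe sets of Nr2f2 thus disagree on the call, and where each lies along the transcript was not examined. The main probe set passed in Htr3a-KO cells without the second E14.5 Htr3a-KO array or with array weights (lowest adjusted p 0.0372). In controls it passed without the third E14.5 control array, with array weights or with the probe sets averaged (lowest adjusted p over the alternatives 0.00394). Against the mean of Gad1, Gad2 and Slc32a1 on the same array, the main probe set lay at -0.73 ± 0.72, -0.44 ± 0.20 and -0.58 ± 0.37 log2 units at E14.5, E18.5 and P2 in Htr3a-KO cells and at -1.01 ± 0.14, -0.78 ± 0.42 and -0.74 ± 0.43 in controls (SD, n = 3), and the ages overlapped. Some of the GABAergic and striatal markers given beside Nr2f1 were lower over the same ages, and their part in the Nr2f2 differences was not tested.

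**Figure D2:**
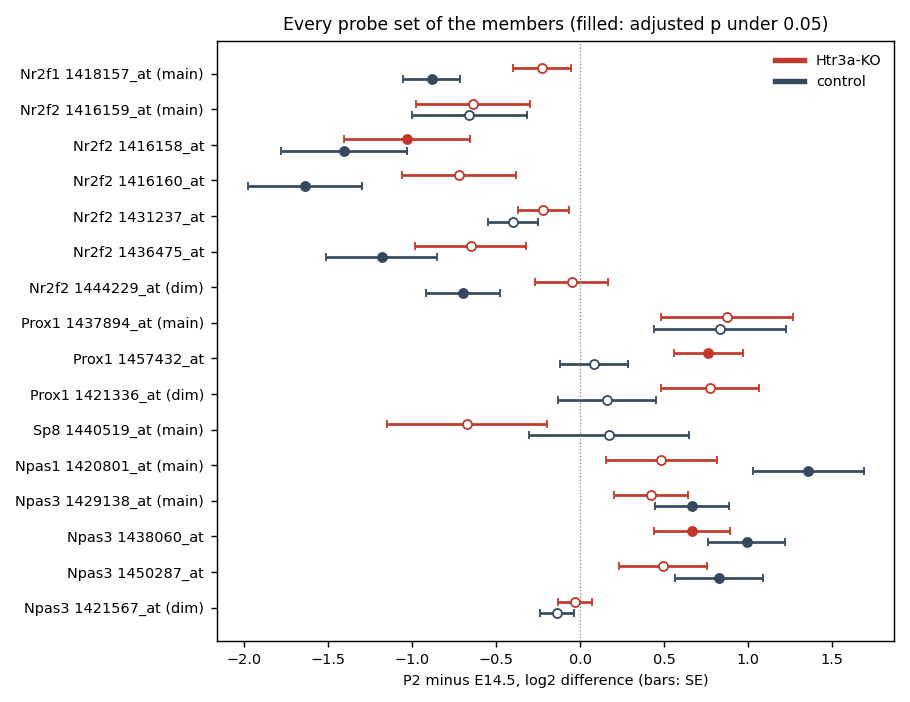
P2 minus E14.5 log2 difference (x axis, bars show the SE) for all 16 probe sets (rows) in Htr3a-KO (red, upper) and control (dark, lower). Filled points had an adjusted p under 0.05. The Nr2f2 probe sets lie left of 0 in both genotypes, and 3 of the 4 Npas3 probe sets lie right of it.

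The likeness of other genes to the nuclear receptors was taken as Pearson's r over the 18 arrays, which share age, genotype and sort within a group, so r is a description. Nr2f1 was most like Dach1 (0.871), Id4 (0.865) and Actl6a (0.845), and Nr2f2 was most like Dlx5 (0.805), Mrln (0.783) and Dlx6 (0.782). Dlx5 and Dlx6 are homeobox genes of the GABAergic lineage. With the group means taken out, these r values stayed between 0.667 and 0.762. The genes were picked for their r over these same arrays, so this range is no separate support.

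Prox1 was higher at E18.5 than at E14.5 in Htr3a-KO cells. It read 6.73, 6.97 and 7.42 at E18.5 against 5.87, 5.43 and 5.34 at E14.5, with no overlap. The difference was 2.82-fold (log2 difference 1.49, SE 0.39; adjusted p = 0.0205). It was no longer past 0.05 without E14.5 Htr3a-KO array 2 or 3 or E18.5 Htr3a-KO array 2 or 3 (highest adjusted p = 0.0627). At P2 the Htr3a-KO arrays read 6.45, 6.04 and 6.77, all above those of E14.5, but the log2 difference of 0.87 had an adjusted p of 0.0890.

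In control cells the E14.5 levels of Prox1 were 6.86, 5.26 and 4.74, those at E18.5 were 6.70, 7.27 and 6.56, and those at P2 were 6.27, 6.37 and 6.72. The first E14.5 array stood far above the others and within the range of both later ages. The E18.5 minus E14.5 log2 difference was 1.22 (95% interval 0.39 to 2.06; adjusted p = 0.0582), and it was 1.84 with an adjusted p of 0.00144 without that array. Without it P2 was also higher than E14.5 (log2 difference 1.45; adjusted p = 0.00115), against 0.83 (adjusted p = 0.108) with it. The step did not differ detectably between genotypes (difference of differences 0.27, 95% interval -0.92 to 1.46; adjusted p = 0.918). Over the 6 groups Prox1 was highest in E18.5 Htr3a-KO cells (7.04 ± 0.35, SD, n = 3), followed by E18.5 controls, P2 controls, P2 Htr3a-KO cells, E14.5 controls and E14.5 Htr3a-KO cells (5.55 ± 0.28), and each neighbour in that order overlapped the next.

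A second Prox1 probe set, 1457432_at, did not pass between E18.5 and E14.5. Its log2 difference there was 0.30 in Htr3a-KO cells (adjusted p = 0.332) and 0.22 in controls (adjusted p = 0.576). This probe set passed between P2 and E14.5 in Htr3a-KO cells. It read 6.71, 6.0 and 6.96 in Htr3a-KO cells at P2 against 5.94, 5.66 and 5.78 at E14.5 (log2 difference 0.76; adjusted p = 0.00817), while in controls the log2 difference was 0.08 (adjusted p = 0.788). The third probe set of Prox1 was under the filter. Set against the 3 GABA genes on the same array, Prox1 lay at -4.90 ± 0.38, -2.65 ± 0.19 and -3.24 ± 0.29 log2 units at E14.5, E18.5 and P2 in Htr3a-KO cells, and at -5.13 ± 0.76, -3.21 ± 0.16 and -3.37 ± 0.36 in controls (SD, n = 3). All E14.5 arrays were below all later arrays of their genotype on this measure. The GABAergic marker list, which holds these 3 genes, averaged lower at both later ages in each genotype. A lower reference by itself raises the measure. By r over 18 arrays the genes most like Prox1 were Dgat1 (0.806), Edar (0.789) and Tcerg1l (0.783), and r fell to 0.396 for Tcerg1l with group means removed.

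Markers of the other cell types that use Prox1 moved in part with it. Between E18.5 and E14.5, 15.1% of all genes passed in Htr3a-KO cells and 11.0% in controls. All 7 oligodendrocyte lineage markers were higher at E18.5 than at E14.5 in both genotypes. Their summed level on the log2 scale was 13.45 to 13.78 at E18.5 against 9.48 to 9.92 at E14.5 in Htr3a-KO cells, and 12.28 to 13.40 against 9.46 to 9.54 in controls. The marker Olig2 read 9.35, 9.29 and 9.87 at E18.5 against 4.44, 4.80 and 5.45 at E14.5 in Htr3a-KO cells. At P2 their summed level was 14.37 to 14.87 in Htr3a-KO cells and 14.24 to 14.44 in controls. Of the 7 markers, 5 in Htr3a-KO cells and 7 in controls were higher than at E18.5, where 28.5% and 19.7% of all genes passed. The Prox1 log2 difference in that step was -0.62 in Htr3a-KO cells (adjusted p = 0.248) and -0.39 in controls (adjusted p = 0.543). Their part in the Prox1 difference was not tested. Of 3 dentate granule neuron markers tested, 1 passed between E18.5 and E14.5 in Htr3a-KO cells, Rfx3 (log2 difference 0.52; adjusted p = 0.0492), and their defining marker C1ql2 stayed between 5.15 and 5.94 on all arrays. The summed dentate level was 9.47 to 9.79 at E18.5 against 9.05 to 9.48 at E14.5 in Htr3a-KO cells. The lymphatic marker Lyve1 lay between 5.12 and 5.73 on the Htr3a-KO arrays, and in controls it read 6.65, 6.13 and 5.6 at P2 against 5.21 to 5.43 at the earlier ages (P2 minus E14.5 log2 difference 0.77; adjusted p = 0.00456). Of 10 endothelial, lymphatic and mural markers tested, 0 passed between E18.5 and E14.5 in either genotype (limma). At P2 1 in Htr3a-KO cells and 4 in controls were higher than at E14.5, where 41.5% and 39.2% of all genes passed.

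Sp8 did not pass in any comparison, and its spread among arrays of 1 group was wide. In Htr3a-KO cells it ranged from 8.30 to 9.34 at E14.5, from 8.36 to 8.97 at E18.5 and from 7.18 to 8.57 at P2. In control cells it ranged from 7.73 to 9.15, from 7.72 to 9.52 and from 8.27 to 9.21 at the same ages. All 6 groups overlapped their neighbours in level. The largest of its age differences, P2 minus E14.5 in Htr3a-KO cells, was a log2 difference of -0.67 (95% interval -1.69 to 0.34; adjusted p = 0.281). Sp8 was most like Dlx1 (r = 0.873), a homeobox gene of the GABAergic lineage, then Sox2ot (0.789) and Thoc7 (0.772), and with group means removed r for Dlx1 was 0.888. Dlx1 was picked for its r over these same arrays, so the second value describes them and is no separate support.

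Npas1, the bHLH-PAS factor that limits interneuron production, was higher at E18.5 and at P2 than at E14.5 in control cells. Between P2 and E18.5 in controls it did not pass (log2 difference -0.34, adjusted p = 0.523). In Htr3a-KO cells its levels at E14.5 were 7.75, 8.11 and 6.66, those at E18.5 were 7.23, 7.83 and 7.71, and those at P2 were 8.51, 7.68 and 7.78. In control cells its levels at E14.5 were 6.60, 6.17 and 6.30, those at E18.5 were 7.72, 8.58 and 7.86, and those at P2 were 7.99, 7.69 and 7.46. The Htr3a-KO ages overlapped, whereas all later control arrays lay above all E14.5 control arrays. Over the 6 groups E14.5 controls were lowest and did not overlap the group next to them, while the other 5 groups overlapped their neighbours.

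In Htr3a-KO cells the E18.5 minus E14.5 log2 difference of Npas1 was 0.08 (95% interval -0.62 to 0.78; adjusted p = 0.882). In control cells Npas1 rose 3.24-fold at E18.5 over E14.5 (log2 difference 1.70, SE 0.33; adjusted p = 0.00396), and at P2 it was 2.56-fold above E14.5 (log2 difference 1.36; adjusted p = 0.00422). Both control differences share the E14.5 arrays, and each passed in 18 of 18 alternatives, the first with log2 differences of 1.41 to 1.86. The difference between genotypes in the step from E14.5 to E18.5 was -1.61 log2 units (95% interval -2.60 to -0.62), with an unadjusted p of 0.00333 and an adjusted p of 0.685 in the limma fit.

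At E14.5 all Htr3a-KO arrays, at 7.51 ± 0.76, lay above all control arrays, at 6.36 ± 0.22 (SD, n = 3), the third Htr3a-KO array only just. This log2 difference between genotypes of 1.15 (95% interval 0.45 to 1.85) had an unadjusted p of 0.00314 and an adjusted p of 0.659 in the limma fit, so it did not pass. It passed in 1 of 18 alternatives, with array weights (adjusted p = 0.0393), and the highest adjusted p over the alternatives was 1.0.

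Other cell types differed among the E14.5 arrays in the same groups. The striatal projection neuron markers, of which Isl1 is a defining one, had a summed level of 11.15 to 12.28 on the Htr3a-KO arrays and 11.34 to 14.23 on the control arrays. Isl1 read 6.21, 9.34 and 10.38 on the Htr3a-KO arrays and 11.97, 12.25 and 8.95 on the controls at E14.5. The summed microglial markers were 10.79 to 13.08 on Htr3a-KO arrays and 9.43 to 11.09 on control arrays, and the summed endothelial, lymphatic and mural markers were 10.37 to 11.72 and 9.73 to 10.38. Between genotypes at E14.5, 0.0140% of all genes passed. For the striatal, microglial and endothelial lists, 0 of 7, 0 of 9 and 0 of 10 tested markers passed there (limma). The part of these cells in the Npas1 difference was not tested.

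Npas1 was most like Slc37a4 (r = 0.931), Nr3c2 (0.920), which encodes the mineralocorticoid receptor, and Igf1 (0.869), a growth factor that some cortical interneurons express. With group means removed, r was 0.767 for Slc37a4, 0.890 for Nr3c2 and 0.897 for Igf1. These genes were picked for their r over these same arrays, so the later values are no separate support. Set against the mean of Gad1, Gad2 and Slc32a1 on the same array, Npas1 lay at -2.94 ± 0.62 log2 units in E14.5 Htr3a-KO cells and -4.40 ± 0.90 in E14.5 controls, at -2.10 ± 0.15 and -2.00 ± 0.17 at E18.5, and at -1.67 ± 0.25 and -2.11 ± 0.24 at P2 (SD, n = 3). On this within-array measure all E14.5 arrays lay below all later arrays of their genotype, in Htr3a-KO cells too, where the levels themselves overlapped. The measure also rises where its reference falls. The GABAergic marker list, which holds the reference genes, averaged 9.76, 9.08 and 8.78 at E14.5, E18.5 and P2 in Htr3a-KO cells. In controls it averaged 10.11, 9.27 and 9.09. The separation in Htr3a-KO cells thus does not show a rise of Npas1 itself. The E14.5 genotypes overlapped on it, with the third Htr3a-KO array at -3.66 and the third control array at -3.38.

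Npas3, the paralogue of Npas1, was higher at P2, against E18.5 in Htr3a-KO cells and against E14.5 in controls. In Htr3a-KO cells its levels at E14.5 were 10.28, 10.33 and 9.76, those at E18.5 were 9.75, 9.82 and 9.92, and those at P2 were 10.72, 10.19 and 10.72. In control cells its levels at E14.5 were 9.78, 9.58 and 9.69, those at E18.5 were 9.61, 10.59 and 9.89, and those at P2 were 10.18, 10.58 and 10.29. The P2 arrays lay above all E18.5 arrays in Htr3a-KO cells and above all E14.5 arrays in controls. Each group overlapped its neighbours in the order of means, which ran from 10.54 ± 0.31 in P2 Htr3a-KO cells down to 9.68 ± 0.10 in E14.5 controls (SD, n = 3).

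In Htr3a-KO cells P2 was 1.64-fold above E18.5 (log2 difference 0.71; adjusted p = 0.0247), which was not past 0.05 without any 1 of 4 arrays (E18.5 Htr3a-KO 1 or 2, P2 Htr3a-KO 1 or 3; highest adjusted p = 0.0933). Between P2 and E18.5 in these cells 1438060_at also passed (log2 difference 0.66, adjusted p = 0.044), and 1450287_at did not (0.49, adjusted p = 0.182). The P2 minus E14.5 log2 difference in these cells was 0.42 on the main probe set (adjusted p = 0.141). It was 0.67 on 1438060_at (adjusted p = 0.0306) and 0.49 on 1450287_at (adjusted p = 0.156). In control cells P2 was 1.59-fold above E14.5 (log2 difference 0.67; adjusted p = 0.0244), and this was not past 0.05 without any 1 of E14.5 control arrays 2 and 3 and P2 control array 2 (highest adjusted p = 0.0930). The other 2 probe sets above the filter also passed in controls, with log2 differences of 0.99 for 1438060_at (adjusted p = 0.00323) and 0.83 for 1450287_at (adjusted p = 0.0222).

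Astrocyte markers moved in part with Npas3. Between P2 and E18.5, 28.5% of all genes passed in Htr3a-KO cells and 19.7% in controls. Between P2 and E14.5, 41.5% and 39.2% passed. All 8 astrocyte markers were higher at P2 than at E18.5 and than at E14.5 in both genotypes. Their summed level was 14.67 to 15.23 in Htr3a-KO cells and 14.27 to 15.00 in control cells at P2, against 12.04 to 12.43 in Htr3a-KO cells and 10.63 to 11.85 in control cells at E18.5, and 11.57 to 12.51 and 10.76 to 12.30 at E14.5. Npas3 did not pass between P2 and E18.5 in controls (log2 difference 0.32, adjusted p = 0.344, limma). Between E18.5 and E14.5 in Htr3a-KO cells 3 of 8 astrocyte markers were higher, while the Npas3 log2 difference was -0.29 (adjusted p = 0.372). The part of astrocytes in the Npas3 difference was not tested. The genes most like Npas3 were Ephb3 (r = 0.896), an ephrin receptor, Cxxc5 (0.866) and Tm7sf3 (0.859).

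**Figure D3:**
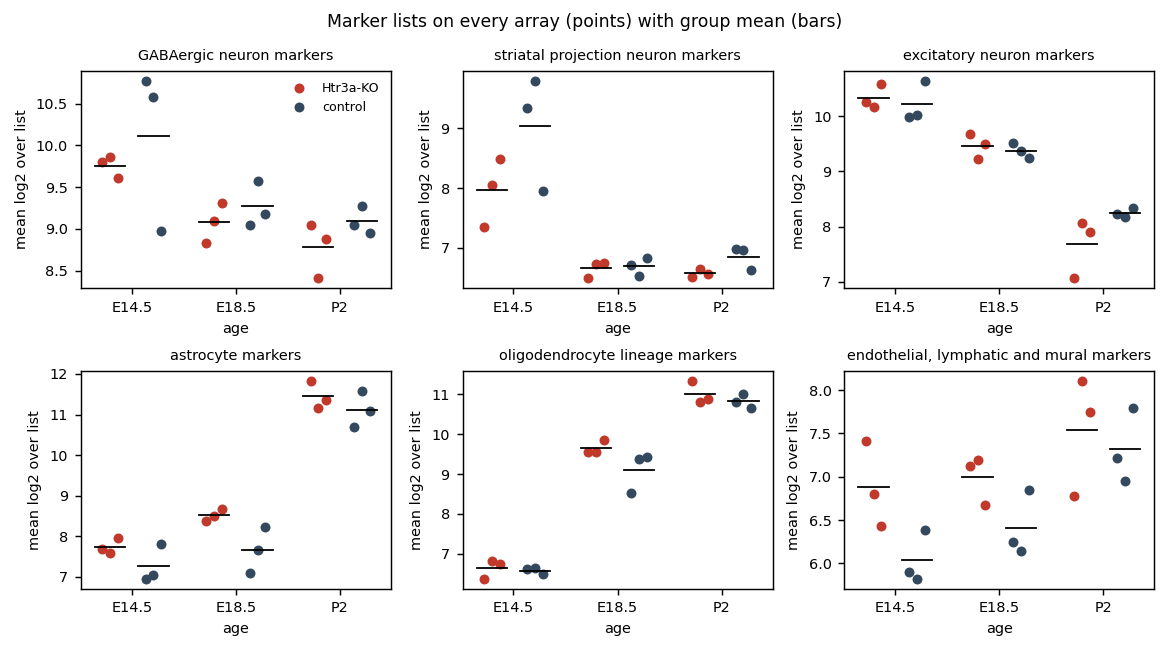
Mean log2 level of each marker list (y axis, a separate scale in each panel) at each age (x axis) in Htr3a-KO (red, left) and control (dark, right). Points are arrays and lines are group means. Astrocyte and oligodendrocyte lineage markers are highest at P2, and striatal projection neuron markers spread more widely at E14.5 than at the later ages.

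Paralogues were compared as the difference between their levels on the same array, by a two-sided exact permutation test of age within genotype over 12 arrays. The levels of different probe sets are not comparable, so only the shift of the difference with age has meaning. The Nr2f1 minus Nr2f2 difference shifted by 0.07 log2 units between E14.5 and E18.5 (adjusted p = 0.966) and by 0.09 between E14.5 and P2 (adjusted p = 0.966). The Npas1 minus Npas3 difference was 0.86 log2 units higher at E18.5 than at E14.5, with an exact p of 0.0100 and an adjusted p of 0.0600 over the 6 tests. It was -2.52, -1.99 and -2.21 at E18.5 against -2.53, -2.22 and -3.10 at E14.5 in Htr3a-KO cells, and -1.89, -2.01 and -2.03 against -3.18, -3.41 and -3.39 in controls. The P2 minus E18.5 shift was -0.49 (exact p = 0.0400, adjusted p = 0.120), and no pair passed.

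**Figure D4:**
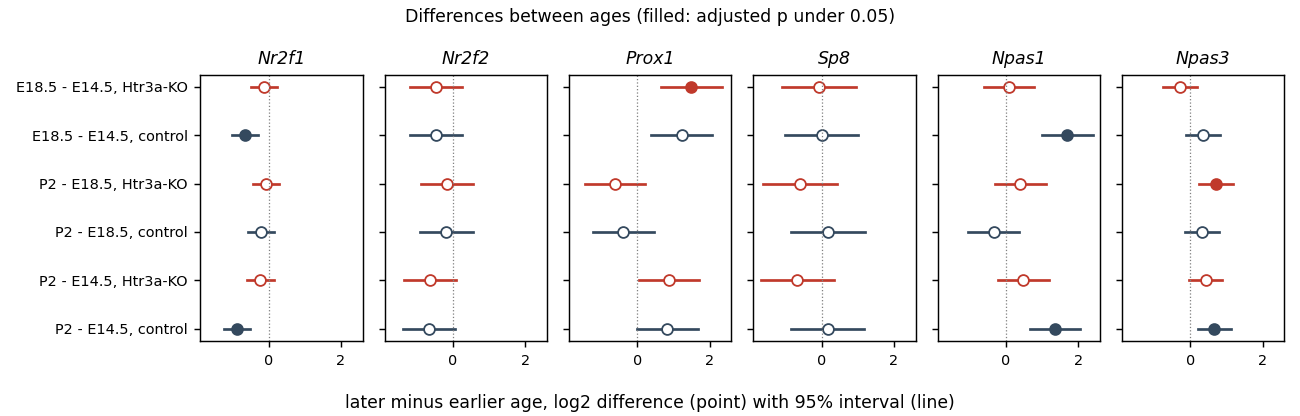
Later minus earlier age, log2 difference (x axis, points) with its 95% interval (lines), for each gene (panels), with Htr3a-KO (red) above control (dark) in each pair of rows. Filled points had an adjusted p under 0.05. Npas1 at E18.5 over E14.5 in controls is farthest from 0, at 1.70.

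The 6 measured genes are too few for their counts to be set apart from the share of all genes that passed, which is given beside each. Each gene is counted by its main probe set. Between E18.5 and E14.5, 1 of 6 passed in Htr3a-KO cells (Prox1), where 15.1% of 14292 genes passed, and 2 of 6 in control cells (Npas1 higher, Nr2f1 lower), where 11.0% passed. Between P2 and E18.5, 1 of 6 passed in Htr3a-KO cells (Npas3), where 28.5% of genes passed. In controls 0 of 6 passed in that step, against 19.7% of genes, with 0 of 6 at an unadjusted p under 0.05 in limma. Between P2 and E14.5, 0 of 6 passed in Htr3a-KO cells, against 41.5% of genes, with 1 of 6 at an unadjusted p under 0.05, and 3 of 6 passed in controls (Nr2f1, Npas1 and Npas3), against 39.2%. The median log2 difference of the 6 genes between P2 and E14.5 was 0.10 in Htr3a-KO cells and 0.42 in controls, where the median of all genes was -0.07 and -0.04.

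No measured gene passed between genotypes at any age. At E14.5 0 of 6 passed, where 0.0140% of genes passed, with 1 of 6 (Npas1) at an unadjusted p under 0.05 in limma. At E18.5 0 of 6 passed, where 0.0210% of genes passed, and at P2 0 of 6, where 0.0350% passed, with 0 of 6 at an unadjusted p under 0.05 at both ages. For the mean of the 3 ages 0 of 6 passed against 0.294% of genes, and 0 of 6 had an unadjusted p under 0.05. Over all genes, 838, 1844 and 1083 had an unadjusted p under 0.05 at E14.5, E18.5 and P2, and 1600 did so for the mean.

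The intervals say what sizes the main probe set of each gene leaves for an Htr3a-KO effect averaged over the ages. For Nr2f1 the log2 difference was 0.06 (95% interval -0.15 to 0.27), for Npas3 0.14 (-0.13 to 0.41), for Nr2f2 -0.02 (-0.44 to 0.40) and for Prox1 0.03 (-0.45 to 0.51). For Npas1 it was 0.32 (-0.08 to 0.72), and for Sp8 -0.15 (-0.74 to 0.43). The interval was narrowest for Nr2f1 and widest for Sp8. Other probe sets of a gene gave other intervals. On 1416160_at of Nr2f2 the log2 difference was -0.26 (-0.68 to 0.15).

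**Figure D5:**
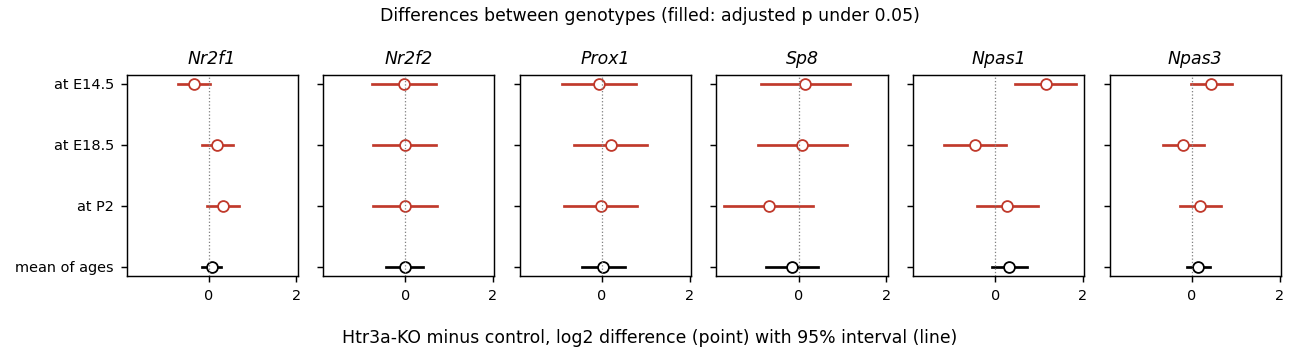
Htr3a-KO minus control, log2 difference (x axis, points) with its 95% interval (lines), for the main probe set of each gene (panels) at each age and for the mean of the ages (rows). Open points did not reach an adjusted p under 0.05. Only Npas1 at E14.5, at 1.15, has an interval that leaves out 0.

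The differences between genotypes in the age steps were likewise not past the threshold for any of the 6 genes. For the step from E14.5 to E18.5 0 of 6 passed, where 0.00700% of genes passed, with 2 of 6 (Npas1 and Nr2f1) at an unadjusted p under 0.05 in limma. For the steps from E18.5 to P2 and from E14.5 to P2, and for the F test over the steps, 0 of 6 passed and 0% of genes passed. In these 3 tests 0, 1 and 2 of the 6 genes by their main probe sets, and 1033, 900 and 1033 genes in all, had an unadjusted p under 0.05. An age difference that passed in 1 genotype was thus not shown to differ from that in the other.

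Of 21 other transcription factors of the GABAergic lineage, 16 were tested. In Htr3a-KO cells 2 were higher (Gsx2 and Gsx1) and 1 lower (Pax6) at E18.5 than at E14.5, and 2 were higher and 4 lower at P2 than at E14.5; 15.1% and 41.5% of all genes passed in these steps. In controls 5 passed at E18.5 against E14.5 (11.0% of all genes did), all lower, with a median log2 difference of -0.25 where the median of all genes was -0.01. Pax6, a factor of progenitors and olfactory bulb interneurons, had a log2 difference of -1.54 (adjusted p = 0.00173), and Foxp2 one of -1.63 (adjusted p = 0.00352). Dlx6 had one of -2.17 (adjusted p = 0.0110) and Tshz1, a zinc-finger gene of the lateral ganglionic eminence lineage, one of -1.20 (adjusted p = 0.0122). Between P2 and E18.5 in controls 0 of 16 passed (19.7% of all genes), and between P2 and E14.5 in controls 1 was higher (Gsx1) and 5 were lower (39.2% of all genes passed).

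Relatives and partners of the 7 genes (16 listed, 14 tested) included genes that passed in each direction. In Htr3a-KO cells 3 were higher and 4 lower at P2 than at E14.5, where 41.5% of all genes passed. Of the 14, 1 was higher and 1 lower at E18.5 than at E14.5 in controls, where 11.0% of all genes passed. Npas4, an activity-dependent bHLH-PAS factor, was higher at 4.81-fold (log2 difference 2.27, adjusted p = 0.00706). Sp4 was lower, at a log2 difference of -0.74 (adjusted p = 0.0436). Npas4 read 9.88, 8.26 and 8.71 at E18.5 against 6.85, 7.61 and 5.59 at E14.5 in those cells. Nr2f6, the third receptor of the COUP-TF family, was higher at P2 than at E14.5 in controls (log2 difference 0.90, adjusted p = 0.00045). This direction was opposite to that of Nr2f1 between the same ages. Nr2f6 was also higher at P2 than at E18.5 in controls (log2 difference 0.56, adjusted p = 0.0222), where Nr2f1 did not pass (-0.22, adjusted p = 0.415). Between P2 and E14.5 in controls 3 of 14 were higher and 3 lower, with a median log2 difference of 0.01, where 39.2% of all genes passed.

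Of 15 listed markers of CGE interneurons 13 were tested. In Htr3a-KO cells 1 was higher (Ndnf) and 1 lower (Crh) at E18.5 than at E14.5, where 15.1% of all genes passed. At P2 in these cells 4 were higher and 0 lower than at E18.5 (28.5% of all genes passed), and 7 were higher and 0 lower than at E14.5 (41.5%). At E18.5 against E14.5 in controls, where 11.0% of all genes passed, 6 of 13 were higher and 1 lower: Htr3a itself (log2 difference 2.29; adjusted p = 8.24e-05), Ndnf, of neurogliaform cells (1.95; adjusted p = 0.000984), and the neuropeptide gene Cck (1.51; adjusted p = 0.00161) were higher, and the neuropeptide gene Crh was lower (-1.95; adjusted p = 0.00169). Between P2 and E18.5 in controls 3 were higher, Crh (3.69; adjusted p = 5.78e-06), Vip (1.79; adjusted p = 0.00236) and Lamp5 (0.98; adjusted p = 0.00300), and Htr3a was lower (-1.55; adjusted p = 0.000834). In that step 19.7% of all genes passed. Between P2 and E14.5 in controls 8 of 13 were higher and 0 lower, where 39.2% of all genes passed. Their median log2 difference at E18.5 against E14.5 was 0.42 in Htr3a-KO cells and 0.71 in controls.

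Between genotypes, 0.0140%, 0.0210% and 0.0350% of all genes passed at E14.5, E18.5 and P2, and 0.294% in the mean of the ages. Of the 16 lineage factors 0, and of the 14 relatives 0, passed in limma at any age or in that mean. Of the 13 markers only Htr3a passed, lower in Htr3a-KO cells at E18.5 (log2 difference -3.51; adjusted p = 7.66e-06) and at P2 (-1.94; adjusted p = 0.0109).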

How the data were processed

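RNA from FACS-sorted GFP-positive cells (18 Affymetrix mouse arrays) was measured. Per the design text, the authors used Partek Genomic Suite 6.6 beta and robust multi-array averaging (RMA), and the deposited values are log2 intensities. The values were used as deposited. The annotation named 1 gene for 34945 of 45101 probe sets, several for 932 and none for 9160, and 64 were controls. All sample columns were used. The dimmest 30% of probe sets by mean (under log2 5.255) were left out, and the highest mean stood for a gene, leaving 14292 genes. Dim probe sets, and other probe sets of a gene, were tested in separate fits over all single-gene probe sets, without the filter and above it.

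Genes were compared with limma 3.58.1 (R 4.3.3), with 1 mean for each of 6 groups, 12 residual degrees of freedom and Benjamini-Hochberg adjustment over all genes, and passed at an adjusted p under 0.05. The fit was tested on simulated data. Paralogue differences were tested by exact permutation (400 permutations, smallest p 0.005). Sp8 minus Sp9 could not be run, which left 6 tests. Figures and tables were made with Python 3.11.15. The number of arrays limits the precision.

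Named were all members with every probe set, the 3 genes most like each, up to 4 genes per lineage list with the smallest p in each control age step and genotype comparison, Htr3a, and markers of other cells that moved with a member. The members and lists were chosen with earlier results of these data known. Some listed genes were not analysed here.

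Alternatives, each changed alone, were no dim filter or 1 at 50%, probe sets averaged per gene or each tested, quantile normalisation, median centring, trended and robust prior variance, weighted arrays, the replicate number as a block, a threshold of 0.10, a fit of only the arrays compared, and each array left out. Leaving out E14.5 control array 3 with E18.5 control array 2 was chosen after seeing the data. Most arrays with the same number did not deviate together (r above 0.1 in 4, 3 and 5 of 15 pairs). The numbers were not used as a block in the main fit, and this check cannot say what they stand for.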

Additional observations from a re-analysis of the deposited data

How the results depend on the processing

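The number of the 6 genes that passed depended on the setting in these comparisons. For E18.5 against E14.5 in Htr3a-KO cells it was 0 under the stricter filter, which leaves Prox1 untested, and 0 to 1 with 1 array left out, and for P2 against E18.5 in Htr3a-KO cells 0 to 1 with 1 array left out. For P2 against E14.5 in Htr3a-KO cells it was 1 with the mean of the probe sets, with array weights, at a false discovery rate of 0.10, with only the arrays compared and with E14.5 control array 3 and E18.5 control array 2 left out, and 0 to 1 with 1 array left out. For E18.5 against E14.5 in controls it was 1 with only the arrays compared, 3 at a false discovery rate of 0.10 and 1 to 2 with 1 array left out. For P2 against E14.5 in controls it was 4 with the mean of the probe sets, with array weights and with both arrays just named left out, and 2 to 4 with 1 array left out. For Htr3a-KO against control at E14.5 it was 1 with array weights. The number of paralogue differences past the threshold was 0 to 2 with 1 array left out, the 2 arising without P2 Htr3a-KO array 1. The causes were not tested. With the replicate block 1, 1 and 0 genes passed in the Htr3a-KO age steps and 2, 0 and 3 in the control steps, as without it, and it changed no other call. No direction of a called difference reversed. Over all genes, the number that passed between genotypes depended on the setting: 2 genes at E14.5 (0 to 140 over the alternatives), 3 at E18.5 (2 to 876), 5 at P2 (0 to 21) and 42 for the mean of the ages (17 to 318). For the age steps it was 2163 (928 to 4795), 4070 (2517 to 6471) and 5938 (4973 to 9710) in Htr3a-KO cells, and 1571 (916 to 3166), 2818 (1665 to 4683) and 5601 (4659 to 9324) in controls, in the order E18.5 against E14.5, P2 against E18.5 and P2 against E14.5. For the genotype difference in the steps it was 1 (0 to 41), 0 (0 to 0), 0 (0 to 12) and, for the F test, 0 (0 to 13). Array values carry no counts, so the number of arrays is what limits the precision.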
